A study of Mus musculus with 2 samples.

Results

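Notch signalling and the choice between absorptive and secretory fate were followed across 10 genes in mouse small-intestinal organoids grown with RankL or without it. The genes were the receptors Notch1 and Notch2, the ligands Dll1, Dll4 and Jag1, the target genes Hes1, Hes5 and Heyl, and the secretory fate factors Atoh1 and Gfi1. They were chosen by name, through the RefSeq accessions of non-control probes, and all 10 of the 32235 genes or accessions on the array were found, with 14 probes. Organoids are epithelial structures grown in culture from crypts, here from the small intestine of wild-type mice. Both groups received EGF, Noggin and R-spondin. The treated group also received recombinant mouse RankL, the cytokine that signals through the receptor RANK to NF-kB, in a range of 50 to 200 ng/ml, and medium was renewed on day 2 and day 5. The untreated group differed in having no RankL. The sources used here do not give the dose and harvest time of these RNAs, or the strain, age and number of mice. The series' title places the comparison in work on M cells, the antigen-sampling cells over Peyer's patches, and their dependence on Spib.

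In Notch signalling a Delta or Jagged ligand on one cell binds a Notch receptor on its neighbour. The receptor is then cut by proteases, and its intracellular part enters the nucleus and joins the DNA-binding protein Rbpj to switch on Hes and Hey genes, which encode transcriptional repressors. In the intestinal crypt, Hes1 represses Atoh1, the basic helix-loop-helix factor that commits cells to the secretory lineages of goblet, Paneth and enteroendocrine cells. Cells with Atoh1 make Delta ligands and Gfi1, a zinc-finger repressor that acts downstream of Atoh1.

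Promoter sequences from RefSeq on build GRCm38.p6 were found for 8 of the 10 genes, in 10 windows of the 250 bases before a start site. None was found for Hes1 or Heyl, so their promoters were not searched for any motif. The core letters bound by Rbpj, TGGGAA on either strand, occurred in 1 of these windows, that of Hes5, and in 21.6% of 32841 such windows over all genes. The Hes5 window is shown as the one that held them, with the Rbpj core letters in capitals. The Notch2 window is shown because it held the only match to the kB consensus, the site read by NF-kB factors, which 3.9% of all windows held. That match is in capitals and spans bases -112 to -103 from the start site, on both strands. The Hes5 matches lie at -226 to -221 and -82 to -77.
Hes5, chr4:154960673-154960922, plus strand: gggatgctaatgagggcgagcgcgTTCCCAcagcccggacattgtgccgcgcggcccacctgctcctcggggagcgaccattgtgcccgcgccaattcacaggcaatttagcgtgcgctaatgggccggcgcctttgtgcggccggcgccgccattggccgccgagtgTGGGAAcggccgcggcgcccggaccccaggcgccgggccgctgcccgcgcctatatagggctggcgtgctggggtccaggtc
Notch2, chr3:98013288-98013537, plus strand: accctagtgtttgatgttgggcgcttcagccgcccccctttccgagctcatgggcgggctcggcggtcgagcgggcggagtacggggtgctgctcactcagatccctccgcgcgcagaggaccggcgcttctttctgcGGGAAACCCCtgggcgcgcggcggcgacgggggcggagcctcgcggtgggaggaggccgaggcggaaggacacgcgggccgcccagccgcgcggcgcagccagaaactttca
These matches describe the letters in the windows and do not show binding. The letters CACNAG, the N-box bound by Hes repressors, occurred in the windows of Dll4, Notch1 and Notch2, and in 36.7% of all windows.

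RNA of the treated and untreated organoids was compared on 2 dual-colour arrays of 1 slide, with the dyes swapped on the second. They hold 1 RNA pair, which leaves 1 replicate in each group. Differences are therefore described by size, without a statistical test. RankL RNA was in Cy3 (green) on array 1 and in Cy5 (red) on array 2. Values are mean log2 ratios of RankL over untreated, and ± gives the SD between the 2 arrays, which measures technical error and says nothing of the spread between cultures. Between 38.3% and 43.4% of the non-control spots were well above background in each RNA and array. A probe was measured if it was well above background on both arrays in at least 1 of the RNAs. Its level is given as spot signal minus local background, in scanner intensity units, and is compared between the RNAs within 1 probe and 1 dye. The repeated spots of Dll1 are the exception, since they are compared within a spot and so across dyes.

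All 6 measured genes had ratios of less than 2-fold. They were below 0 for both Hes genes that could be measured and for Jag1, and above 0 for the receptor Notch2 and the ligands Dll1 and Dll4. Hes1 was at -0.58 ± 0.040, Hes5 at -0.46 ± 0.058, Jag1 at -0.19 ± 0.048, Dll4 at 0.069 ± 0.045, Dll1 at 0.40 ± 0.13 and Notch2 at 0.40 ± 0.029. Notch1, Heyl, Atoh1 and Gfi1 were not well above background in either RNA on either array, so no ratio is given for them. A 2-fold size rule asked for a mean of at least 1 in size, with each array at 0.5 or more in that direction. Of the 6 measured genes, 0 met it upwards, where 5.47% of 12877 measured genes did, and 0 met it downwards, where 2.5% did. With the log ratios of the scanner software in place of the main processing, Hes1 and Hes5 both met it downwards, at -1.33 and -1.21, as did 6.07% of all genes, while 0 met it upwards beside 8.92% of all genes. With no offset, 0 of the 6 met it upwards or downwards, beside 7.96% and 4.14% of all genes. The median of the 6 genes was -0.061, beside 0.0086 over all measured genes.

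**Figure D1:**
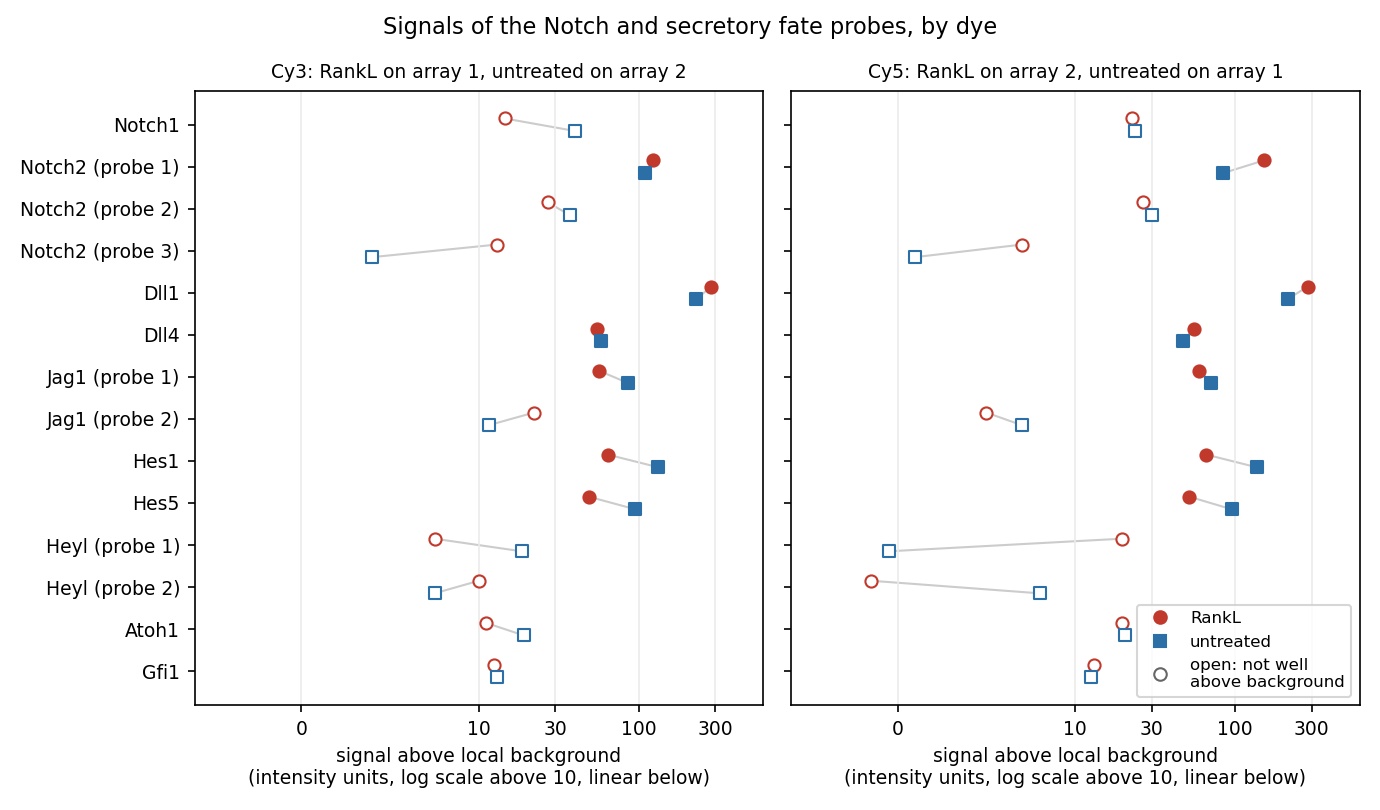
Spot signal minus local background for the 14 probes of the 10 genes, in scanner intensity units, with RankL as circles above untreated as squares, in Cy3 (left) and Cy5 (right); open symbols were not well above background. Hes1 and Hes5 lie lower with RankL in both dyes, Dll1 and Notch2 probe 1 lie higher, and the probes of Notch1, Heyl, Atoh1 and Gfi1 are open throughout.

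Ligands were taken first. Dll1, the Delta ligand that secretory progenitors display, has 1 probe that was printed 10 times on each array. Its 10 spots read 223, 289, 299, 339.5, 353, 361, 258, 243, 250 and 221 units in RankL RNA on array 1, against 225.5, 195.5, 268, 272, 218, 235, 167, 209.5, 190 and 150.5 units in untreated RNA of the same spots. On array 2 they had a median of 281 units (208 to 354) in RankL RNA and 227.5 units (153 to 294) in untreated RNA. The signals of the 2 RNAs overlap between spots, since spots differ in brightness, but within a spot the normalized ratio was above 0 in 10 of 10 spots on each array. The spot ratios ran from 0.14 to 0.74 on array 1, with a mean of 0.49 ± 0.19 (SD of 10 spots), and from 0.12 to 0.54 on array 2, with a mean of 0.31 ± 0.12. These spots repeat 1 measurement of 1 RNA pair and are not replicates. The mean over both arrays, 0.40, was 1.32-fold, and 83.0% of measured genes had a lower ratio.

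**Figure D2:**
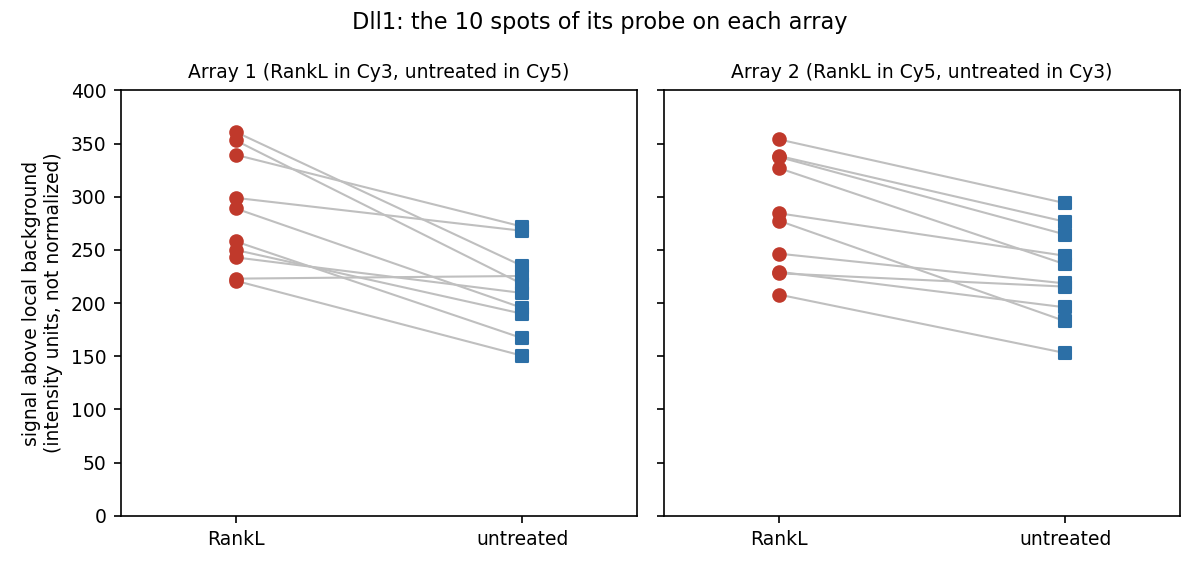
Signal minus local background of the 10 Dll1 spots on array 1 (left) and array 2 (right), in scanner intensity units before normalization, with RankL left of untreated and a line joining the 2 dyes of each spot. The RankL signal is above the untreated one in most spots, with medians of 281 against 227.5 units on array 2.

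Dll4, a second Delta ligand of the crypt epithelium, read 54.5 units in Cy3 and 55.0 units in Cy5 with RankL, against 58.0 units in Cy3 and 47.0 units in Cy5 untreated. The dyes thus disagreed on direction before normalization, and the normalized ratios were 0.10 on array 1 and 0.037 on array 2. Centred on the median of all measured genes, the ratios within a dye were 0.11 in Cy3 and 0.27 in Cy5. Jag1, a Jagged ligand, read 56.0 units in Cy3 and 59.5 units in Cy5 with RankL, against 86.0 and 71.0 units untreated in the same dyes. Its ratios were -0.16 and -0.22 on arrays 1 and 2. A second Jag1 probe was not well above background, and its ratios of 0.21 and -0.035 did not share a sign.

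Notch2 is one of the receptors that act together in the crypt. Its measured probe read 122 units in Cy3 and 150.5 units in Cy5 with RankL, against 109.5 units in Cy3 and 84.0 units in Cy5 untreated, so RankL was higher in both dyes. The ratios were 0.42 and 0.38, or 1.32-fold in the mean, and 83.2% of measured genes had a lower ratio. Other probes of Notch2 were dim in both RNAs and did not share a direction, at -0.11 and -0.095 for one, and 0.15 and 0.21 for the other. Notch1, the other receptor of the set, read 14.5 units in Cy3 and 22.5 units in Cy5 with RankL, against 40.0 units in Cy3 and 23.5 units in Cy5 untreated, which was not above background by the scanner's criterion.

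Hes1, the main repressor that Notch induces in the crypt, read 64.0 units in Cy3 and 66.0 units in Cy5 with RankL, against 132 units in Cy3 and 136 units in Cy5 untreated. Hes5, a related repressor and Notch target, read 48.5 units in Cy3 and 51.5 units in Cy5 with RankL, against 95.0 units in each dye untreated. For both genes every RankL signal lay below every untreated signal. The normalized ratios were -0.61 and -0.55 for Hes1 and -0.50 and -0.41 for Hes5. Of all measured genes, 7.49% had a ratio lower than that of Hes1 and 11.5% one lower than that of Hes5.

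The size of these 2 ratios differed with the processing. The main processing adds an offset of 50 units before logarithms, which is close to the signals themselves. Without the offset Hes1 was at -0.88 and Hes5 at -0.76. Both genes were also compared within a dye across the arrays, with no loess and no offset. Each such ratio was centred on the median of all measured genes, so it differs from the ratio of the signals above. Hes1 was then at -0.85 in Cy3 and -1.0 in Cy5, and Hes5 at -0.77 and -0.84. These settings without an offset were added after seeing the data. Hes1 ran from -1.33 to -0.55 and Hes5 from -1.21 to -0.41 over 9 alternatives, all below 0. Some of the 9 repeat the main value, as described in the last section. For both genes the ratios of the main processing are the narrower ones.

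**Figure D3:**
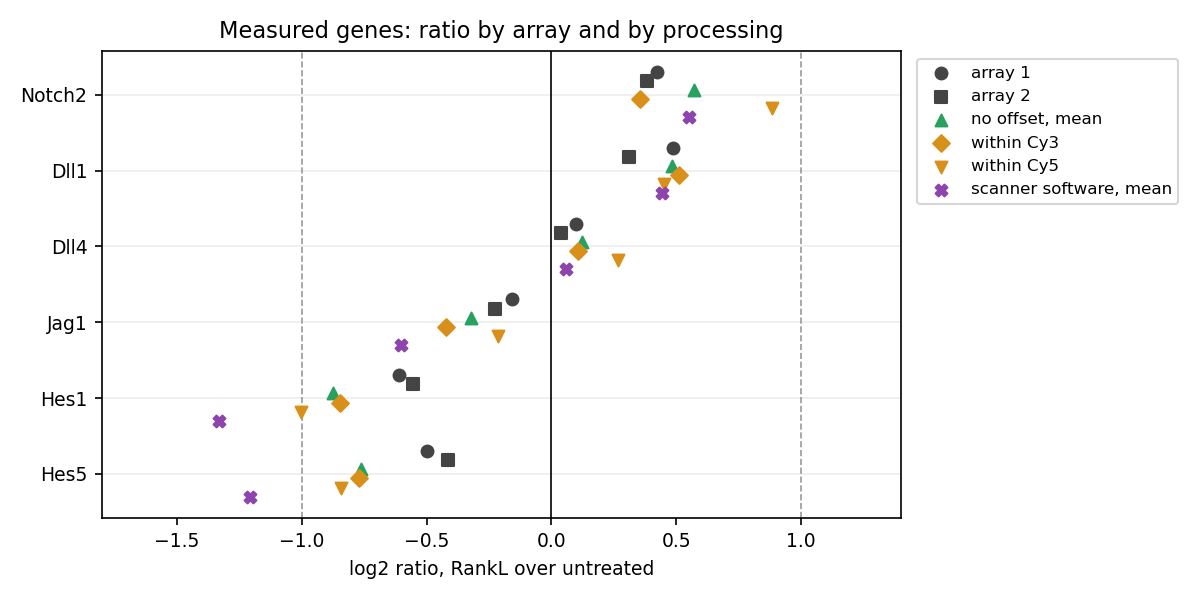
Log2 ratio of RankL over untreated for the 6 measured genes, by array in the main processing (black), without offset (green), within each dye after centring on the median of all measured genes (orange) and by the scanner software (purple); dashed lines mark 2-fold. Hes1 and Hes5 stay below 0 and Notch2 and Dll1 above 0 in each, and the values at or past 2-fold are the scanner software's means of Hes1 (-1.33) and Hes5 (-1.21) and the value of Hes1 within Cy5 (-1.0).

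Heyl, a Hairy-related target of Notch, has 2 probes, both dim. They read 7.5 and 10 units in Cy3 and 19.5 and -1.5 units in Cy5 with RankL, against 18.5 and 7.5 units in Cy3 and -0.5 and 8 units in Cy5 untreated, and no order between the RNAs can be read from them. Hey1 and Hey2, its nearest relatives, each have 1 probe that was not measured. Hey1 read 34 units in Cy3 and 24 units in Cy5 with RankL, against 7 and 17 units untreated in the same dyes. Its ratios of 0.23 and 0.43 lay on the other side of 0 from those of Hes1 and Hes5, at signals near background. With no offset Hey1 was at 1.09, and the scanner software put it at 2.23. The RankL RNA of Hey1 was well above background on array 2 alone, and its untreated RNA on neither array. Atoh1 read 11.0 units in Cy3 and 19.5 units in Cy5 with RankL, against 19.0 and 20.5 units untreated in the same dyes. Gfi1 read 12.5 units in Cy3 and 13 units in Cy5 with RankL, against 13 and 12.5 units untreated in the same dyes. Neither gene was well above background in either RNA, so a difference was not detectable at these signals, and the repression of Atoh1 by Hes1 could not be examined on these arrays.

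The wider pathway was described by 57 further genes, of which 50 had a probe and 35 were measured. In the main processing 0 of the 35 met the 2-fold rule in either direction, with a median of 0.016. Of all measured genes, 5.47% met it upwards and 2.5% downwards. A smaller rule, a mean of at least 0.5 in size with the same sign on both arrays, held upwards for 7 of the 35 and downwards for 1, where 13.1% and 9.92% of all measured genes met it. The same rule held for 0 of the 6 genes of the main set upwards and for 1, Hes1, downwards.

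Nrarp, a feedback inhibitor that Notch itself induces, was the gene lower. It read 35.5 units in Cy3 and 22.5 units in Cy5 with RankL, against 93.5 units in Cy3 and 99.0 units in Cy5 untreated. RankL RNA was not well above background on either array, so Nrarp was at least 1.73-fold lower, which here equals its ratio of -0.79 ± 0.073. It met the 2-fold rule with no offset (-1.46) and with the scanner software (-2.38). Hes6, an inhibitor of Hes1, had a ratio of -0.28 ± 0.25, and its second probe read -0.38 and -0.61 on the arrays.

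Among genes that act on DNA with the receptor, Rbpj read 81.5 units in Cy3 and 78.5 units in Cy5 with RankL, against 44.5 and 41.5 units untreated, with a ratio of 0.50 ± 0.013. The scanner software put Rbpj at 1.30, past the 2-fold rule. Neurl1b, a ubiquitin ligase of the Neuralized family that acts on Notch ligands, was at 0.93 ± 0.27 and met the 2-fold rule on array 1 alone, at 1.12. Poglut1, which adds glucose to the EGF repeats of Notch, was at 0.57 ± 0.049. Dtx3, a ligase of the Deltex family, was not well above background in untreated RNA and was at least 1.47-fold higher (0.63 ± 0.027). Of the other receptors and ligands, Notch4 was at -0.032 ± 0.47, with opposite signs on the arrays, Jag2 was at -0.11 ± 0.062 (RankL RNA was well above background on array 2 alone), and Notch3 and Dll3 were not measured. The means of all 6 measured proteases of the pathway lay between -0.34 and 0.050. Some of them had opposite signs on the 2 arrays, with an SD of up to 0.63.

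Regulators of secretory fate were described by a second list of 32 transcription factors and inhibitors, of which 31 had a probe and 24 were measured. Of the 24, 4 met the 2-fold rule upwards, or 16.7% beside 5.47% of all genes, and 0 downwards, beside 2.5%. The median of the 24 was 0.081. The 4 were Gfi1b and the 3 Id genes, which met it under all 8 alternatives run for the list. The Id genes and 4 general epithelial factors were listed beside the secretory regulators proper. Of the 17 measured secretory regulators, 1, Gfi1b, met the rule upwards, so the higher share of the list comes from the Id genes. The smaller rule held for 6 of the 24 upwards, the 3 Id genes among them, and for 4 downwards. Of all measured genes, 13.1% and 9.92% met it. Both lists were chosen with earlier results of these arrays known.

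Gfi1b, the closest relative of Gfi1 and a gene of tuft cells, read 423 units in Cy3 and 774 units in Cy5 with RankL, against 28.0 units in Cy3 and 36.5 units in Cy5 untreated. Its ratio was 2.93 ± 0.66, and its untreated signal was well above background on 1 array but not the other. Gfi1b was thus far above its untreated level, while Gfi1 was not well above background in either RNA. The tuft cell markers Dclk1, a kinase, and Trpm5, a taste-pathway channel, were at 0.77 ± 0.078 and 0.89 ± 0.062, which met the smaller rule upwards and not the 2-fold rule. Other measured probes of Dclk1 averaged 0.39 and 0.59. The part of tuft cells in the ratio of Gfi1b was not tested.

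Id1, Id2 and Id3 encode helix-loop-helix proteins without a DNA-binding region, which bind the partners of factors such as Atoh1 and hold them off DNA, and they are well known as targets of BMP signalling. Id2 read 1525 units in Cy3 and 1903 units in Cy5 with RankL, against 230.5 units in Cy3 and 197.5 units in Cy5 untreated. Id1 read 590.5 and 848.5 units with RankL, against 150.5 and 127 units untreated in the same dyes. Id3 read 904.5 and 964.5 units with RankL, against 186 and 164.5 units untreated. The ratios were 2.83 ± 0.0081 for Id2, 2.21 ± 0.12 for Id3 and 2.08 ± 0.15 for Id1, or 7.10-fold, 4.63-fold and 4.23-fold. Second probes of Id1 and Id2 read 1.74 and 1.91, and 2.68 and 2.48, on the arrays. Between 98.4% and 99.4% of measured genes had a ratio lower than those of the 3 genes.

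The 17 measured secretory regulators of the list had a median of 0.022, and 10 of them lay above 0. Of the list, Xbp1, Foxa3, Bhlha15 and the epithelial Ets factor Elf3 met the smaller rule downwards, as did 9.92% of all measured genes. In the main processing 0 genes of the list met the 2-fold rule downwards, beside 2.5% of all measured genes. Xbp1, which expands the endoplasmic reticulum of Paneth and goblet cells, read 204.5 units in Cy3 and 186.5 units in Cy5 with RankL, against 393 and 415.5 units untreated, a ratio of -0.76 ± 0.10. Foxa3, a forkhead factor of goblet cells, was at -0.70 ± 0.23, and both met the 2-fold rule downwards with the scanner software, at -1.03 and -1.24. Elf3 was at -0.75 ± 0.13. Bhlha15, a factor of professional secretory cells, was at -0.51 ± 0.12, although a second measured probe averaged 0.027. Foxa2 at 0.52 ± 0.0052 and Sox4 at 0.52 ± 0.013 met the smaller rule upwards. The goblet and Paneth factor Spdef, at -0.37 ± 0.088, and the enteroendocrine fate factor Neurog3, at 0.26 ± 0.14, met neither rule. Bhlha15, Spdef and Neurog3 were chosen after their values were seen.

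**Figure D4:**
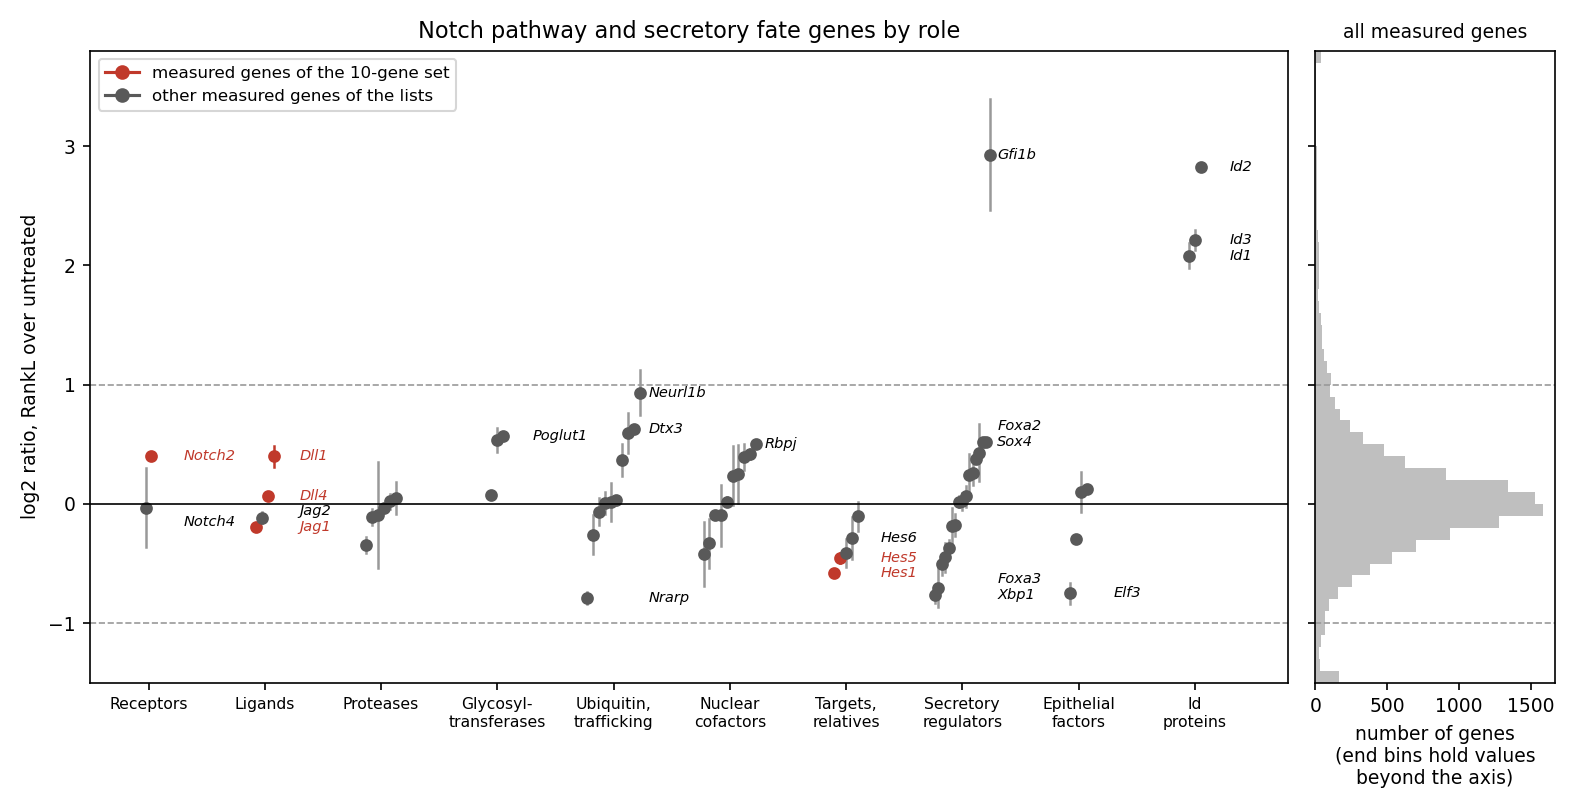
Mean log2 ratio of RankL over untreated (points) and the 2 arrays (line ends) for the measured genes of the 10-gene set (red) and of the wider lists (grey, with 1 gene left out), by role, with dashed lines at 2-fold and the number of measured genes per ratio at the right. Gfi1b and the 3 Id genes lie above 2, while the 6 measured genes of the 10-gene set lie between -0.58 and 0.40.

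The RNA is from whole organoids, so fewer cells of a type and less RNA per cell cannot be told apart. Of all measured genes, 5.47% met the 2-fold rule upwards and 2.5% downwards, to be set beside each marker count below. Epithelial markers were measured for 8 of 8 genes, with a median of -0.029 and 1, Krt20, past the 2-fold rule upwards. They ranged from -0.92 for Krt18 to 2.40 for Krt20, keratins of simple epithelium, and Vil1, the villin of the brush border, was at 0.81. Their summed signal was 126306 units in Cy3 and 161270 units in Cy5 with RankL, against 155322 and 206051 units untreated in the same dyes. M cell markers moved with the treatment, since 5 of 5 met the 2-fold rule upwards (median 4.88), and their summed signal was 47073 units in Cy3 and 57354 units in Cy5 with RankL, against 1699 units in Cy3 and 2337 units in Cy5 untreated. Of 12 markers of secretory and absorptive cells, 3 met the 2-fold rule upwards and 1 downwards, with a median of 0.65. The 3 were the Paneth cell genes Mmp7 (3.12 ± 0.13) and Lyz1 (1.46 ± 0.15) and the enterocyte apolipoprotein Apoa4 (2.56 ± 0.59), and the 1 was Fabp1, a fatty acid carrier of enterocytes (-3.02 ± 0.29). The brush-border enzymes Alpi and Sis were at 0.91 ± 0.32 and 0.52 ± 0.13, the goblet genes Muc2 and Tff3 at -0.30 ± 0.23 and -0.34 ± 0.10, and the enteroendocrine genes Chga and Chgb at -0.20 ± 0.22 and 0.25 ± 0.34. The summed signal of the 12 was 54111 units in Cy3 and 64828 units in Cy5 with RankL, against 130420 and 115191 units untreated in the same dyes. Such a sum follows its brightest genes. With a median ratio of 0.65 and Fabp1 alone past the rule downwards, the lower sum does not show a general fall of the 12. Of 15 markers of cells outside the epithelium 3 were measured, Acta2, Col1a2 and Vim, with 0 past the rule, and the summed signal of 13 of them was 1970 units in Cy3 and 2139 units in Cy5 with RankL, against 1572 units in Cy3 and 1546 units in Cy5 untreated. The leukocyte and endothelial markers Ptprc and Pecam1 were not measured. The part of a changed cell make-up in the ratios of Hes1, Hes5, Nrarp and the Id genes was not tested.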

How the data were processed

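Total RNA was amplified and labelled with Cy3 or Cy5, per the labels' protocols, and read on 2 Agilent arrays. The deposited intensity values are median spot and local background brightness per channel, not normalized. Per the file headers they come from Feature Extraction 10.5.1.1 and a design of build mm9. Version 8.5.1.1 is the one in the submitters' processing notes. The deposited log10 ratios of the software are background-subtracted and dye-normalized, per the file headers. The authors' value table holds the same ratios, turned to RankL over untreated (largest difference 5.0e-06). Each of its columns has a median of 0, and its scale, centring and direction are thereby known. No value column was left unused.

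With limma 3.58.1 (R 4.3.3), signals were corrected by normexp (offset 50) and loess-normalized within arrays, giving weight 0 to the 1639 controls among 45018 spots. Controls were then dropped, as were 246 and 231 spots with outlier flags. Saturation was flagged for 0 spots. Log2 ratios of a probe's spots were averaged. A probe counted in an RNA if at least 0.5 of its spots were well above background. A gene took its brightest measured probe. Names came from RefSeq accessions in a table of GRCm38.p6, so array coordinates are not printed. The median SD between arrays was 0.148. The dye swap is 1 replicate, and both arrays share 1 slide, so no batch could be tested. For genes dim in 1 RNA, an "at least" fold sets the bright RNA against the higher of the probe's own signal and the lowest one well above background, per channel after Aquantile normalization.

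Members and lists were chosen with earlier results of these data known. Named genes are the 10 members, list genes at least 0.5 in size on each array in 1 direction (5 and 9 genes), and Rbpj, Notch3, Notch4, Dll3, Jag2, Hey1, Hey2, Hes6 and Gfi1b. With 1 RNA pair, genes of like pattern were not sought. Motifs were sought by exact letters on both strands. The values of 1 gene of the wider pathway list are not reported here, although it counts in the totals of that list.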

Additional observations from a re-analysis of the deposited data

How the results depend on the processing

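The 6 measured genes kept their sign under all 9 alternatives, with Dll1 from 0.31 to 0.49, Dll4 from 0.037 to 0.19, Jag1 from -0.60 to -0.16 and Notch2 from 0.35 to 0.62. Including dim probes, or averaging measured probes, gave each of the 6 its main value, since each has 1 measured probe. Those alternatives could not change a sign. Each array alone is a part of the main mean. The scanner software's log ratios moved most counts. They gave 1148 genes higher and 781 lower over all genes (8.92% and 6.07%), 2 of the 6 lower (Hes1 and Hes5) with a median of -0.27, 4 of the wider Notch genes higher (Dtx3, Mfng, Neurl1a and Rbpj) and 1 lower (Nrarp) with a median of -0.0040, and 2 secretory regulators lower (Foxa3 and Xbp1) with a median of 0.12. Without offset, added after seeing the data, 1025 genes were higher and 533 lower over all (7.96% and 4.14%), 3 wider Notch genes were higher (Dtx3, Mfng and Neurl1a) and 1 lower (Nrarp), and 1 secretory regulator was lower (Foxa3), with a list median of 0.12. An offset of 16 gave 1 wider Notch gene higher (Dtx3) and 1 lower (Nrarp) of 35, beside 6.87% and 3.32% of all genes, with a median of 0.023. Median centring gave medians of -0.035 for the wider Notch list and 0.021 for the secretory list, and the mean of measured probes 0.0065 and 0.043. With dim probes included the secretory list's median was 0.049. With 1 array alone the number of wider Notch genes higher ran from 0 to 1 (Neurl1b on array 1), beside 5.68% of all genes on each array. The list medians are close to 0, so their signs carry little. The cause of these shifts was not tested. No paired analysis was possible because the arrays hold 1 RNA pair. Signals near background limit Notch1, Heyl, Atoh1 and Gfi1, and 1 RNA per condition limits the rest.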
